A study of Homo sapiens with 6 samples.

Results

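Heterogeneous nuclear ribonucleoproteins (hnRNPs) and the splicing regulators related to them were followed in OVCA433, a human cell line established from ovarian cancer. The genes were chosen by name, as rows of the deposited count table whose symbol was on a list of 36 hnRNP, PTBP, PCBP, CELF, MBNL, RBFOX, ESRP and similar genes. Of these, 33 had a row among the 11957 rows of the table, and ESRP1, ESRP2 and MBNL2, which had none, were not analysed here. The cells were sequenced as poly(A) RNA in 2 groups of 3 libraries, with the genotype labels U2AF2 SI and U2AF2 SINC, to follow the effect of U2AF2 deficiency on gene expression. The labels spell out neither abbreviation and name no other agent, time or clone, so the groups are called SI and SINC as labelled. Nor do they state whether replicates are separate cultures. The spread behind each p-value is therefore that of these 6 libraries and may be technical.

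U2AF2, the large subunit of the factor that binds the pyrimidine tract before a 3′ splice site, did not follow its labels. It stood at 285, 345 and 373 CPM (counts scaled to the size of each library) in replicates 1, 2 and 3 labelled SI and at 252, 284 and 205 CPM in those labelled SINC. The lower level was in the libraries labelled SINC (edgeR log2 difference of SI against SINC 0.44 ± 0.19 SE, adjusted p = 0.653), and every direction given here carries that limit. The table's columns begin with N for SI and S for SINC and are tied to the labels by the sample descriptions alone. Whether the labels are exchanged was not tested, and an exchange would turn every sign and every order of genes by signed change given here. Library totals ran from 43333966 to 48976810 counts, and 1 assembled locus without a gene name took 11.9% to 19.2% of them. Of 11 ovarian and epithelial markers, KRT8, KRT18 and MUC1 had a row, with a summed level of 242 to 410.2 CPM in libraries labelled SI and 312.2 to 454.7 CPM in those labelled SINC. Those without a row, PAX8, WT1, MUC16 and EPCAM among them, were not analysed here. Of 18 fibroblast, leukocyte and endothelial markers, COL1A1, COL1A2, COL3A1, THY1 and CD68 had a row. The fibroblast markers summed to 65.12 to 83.92 CPM against 48.62 to 70.28 CPM, most of it COL3A1, and their part in the results was not tested.

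hnRNPs coat nascent transcripts in the nucleus and bind them through RNA recognition motifs, KH domains or RGG repeats. Many of them oppose SR proteins and the U2AF factor at splice sites, so that their relative amounts decide whether an exon is kept. HNRNPC binds uridine tracts and is known to compete with U2AF2 for them, and PTBP1 binds pyrimidine tracts and represses exons. RBFOX2, MBNL1, QKI, CELF1, TIA1 and ELAVL1 bind short motifs in introns or 3′ untranslated regions and set tissue patterns of splicing, RNA stability or translation. Several hnRNP genes hold down their own output through transcripts that nonsense-mediated decay removes. Read counts per gene, as used here, show the summed RNA of a gene and none of its splice forms.

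Of the 33 genes, 29 matched a promoter in RefSeq's table for GRCh38.p14, which gives 250 bases before to 50 bases after each transcription start. The 4 shown are those of the 3 genes with the smallest p-values, all higher in libraries labelled SI, and of HNRNPC, the gene that lay furthest the other way. Capitals mark CCAAT, the GC box GGGCGG, the ETS motif CCGGAAG, the TATA box TATAAA, and the E-box CACGTG, each searched on both strands.
SYNCRIP, chr6:85643821-85644120, minus strand: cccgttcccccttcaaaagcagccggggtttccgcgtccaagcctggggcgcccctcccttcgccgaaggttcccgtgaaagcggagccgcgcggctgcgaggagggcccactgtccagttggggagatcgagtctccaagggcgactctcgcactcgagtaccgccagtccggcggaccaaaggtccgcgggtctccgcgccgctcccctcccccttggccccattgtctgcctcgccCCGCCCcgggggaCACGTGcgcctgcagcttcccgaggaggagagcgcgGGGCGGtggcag
HNRNPM, chr19:8444725-8445024, plus strand: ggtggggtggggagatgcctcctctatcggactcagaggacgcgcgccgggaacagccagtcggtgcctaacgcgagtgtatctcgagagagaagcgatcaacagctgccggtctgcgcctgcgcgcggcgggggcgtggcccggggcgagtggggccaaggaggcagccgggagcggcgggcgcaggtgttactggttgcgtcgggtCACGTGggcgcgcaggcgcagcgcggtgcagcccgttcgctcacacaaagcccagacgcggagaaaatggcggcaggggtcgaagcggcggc
HNRNPU, chr1:244864494-244864793, minus strand: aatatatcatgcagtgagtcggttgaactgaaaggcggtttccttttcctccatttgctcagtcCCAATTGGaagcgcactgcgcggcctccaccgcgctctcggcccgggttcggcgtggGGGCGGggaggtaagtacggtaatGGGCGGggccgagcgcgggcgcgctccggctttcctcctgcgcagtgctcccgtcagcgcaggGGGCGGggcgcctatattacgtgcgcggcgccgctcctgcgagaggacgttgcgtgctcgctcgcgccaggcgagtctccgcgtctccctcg
HNRNPC, chr14:21269393-21269692, minus strand: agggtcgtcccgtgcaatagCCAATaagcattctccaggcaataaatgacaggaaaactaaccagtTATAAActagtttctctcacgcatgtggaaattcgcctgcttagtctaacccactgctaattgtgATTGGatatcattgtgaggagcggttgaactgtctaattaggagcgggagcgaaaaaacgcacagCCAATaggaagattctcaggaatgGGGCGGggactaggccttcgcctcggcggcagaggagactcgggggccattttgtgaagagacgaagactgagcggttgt
The SYNCRIP and HNRNPM promoters both held a CACGTG, as did 20.8% of the 48 promoters of the listed genes and 9.70% of 13479 promoters of the table's genes. HNRNPC alone of the 4 held TATAAA, which was in 8.33% of the listed genes' promoters and 5.70% of all. CCAAT was in 47.9% of the listed genes' promoters against 34.8% of all, GGGCGG in 68.8% against 68.0% and CCGGAAG in 14.6% against 17.9%. In the CCAATTGG of the HNRNPU promoter the match on one strand overlaps that on the other. These matches describe letters in a window, and no binding was measured.

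The listed genes lay higher in libraries labelled SI by a small amount, and none passed the test. Their median log2 fold change was 0.23, against 0.04 over all 11957 rows, and 31 of the 33 lay above 0, against 54.3% of all rows. In edgeR's quasi-likelihood test 0 of 33 had an adjusted p under 0.05 (0.00836% of all rows did). At an unadjusted p under 0.05 there were 3, SYNCRIP, HNRNPM and HNRNPU, all higher in libraries labelled SI, or 9.09% against 7.37% of all rows. By direction, 3.15% of all rows were higher and 4.22% lower at that p. DESeq2 and limma-voom named the same 3 at an unadjusted p under 0.05 and called 0 at an adjusted one. DESeq2 gave no adjusted p for some genes, SYNCRIP, HNRNPR and ELAVL1 among them. In edgeR with RLE scaling 2 were left at an unadjusted p under 0.05, without HNRNPU. The CPM of 7 of the 33 did not overlap between the groups, all higher in libraries labelled SI, which is 21.2% against 13.0% of all rows. Over all rows, 7.36% were higher without overlap and 5.68% lower. A 2-sided exact permutation test gave p = 0.1 for each of the 7, the smallest that 3 libraries against 3 allow.

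**Figure D1:**
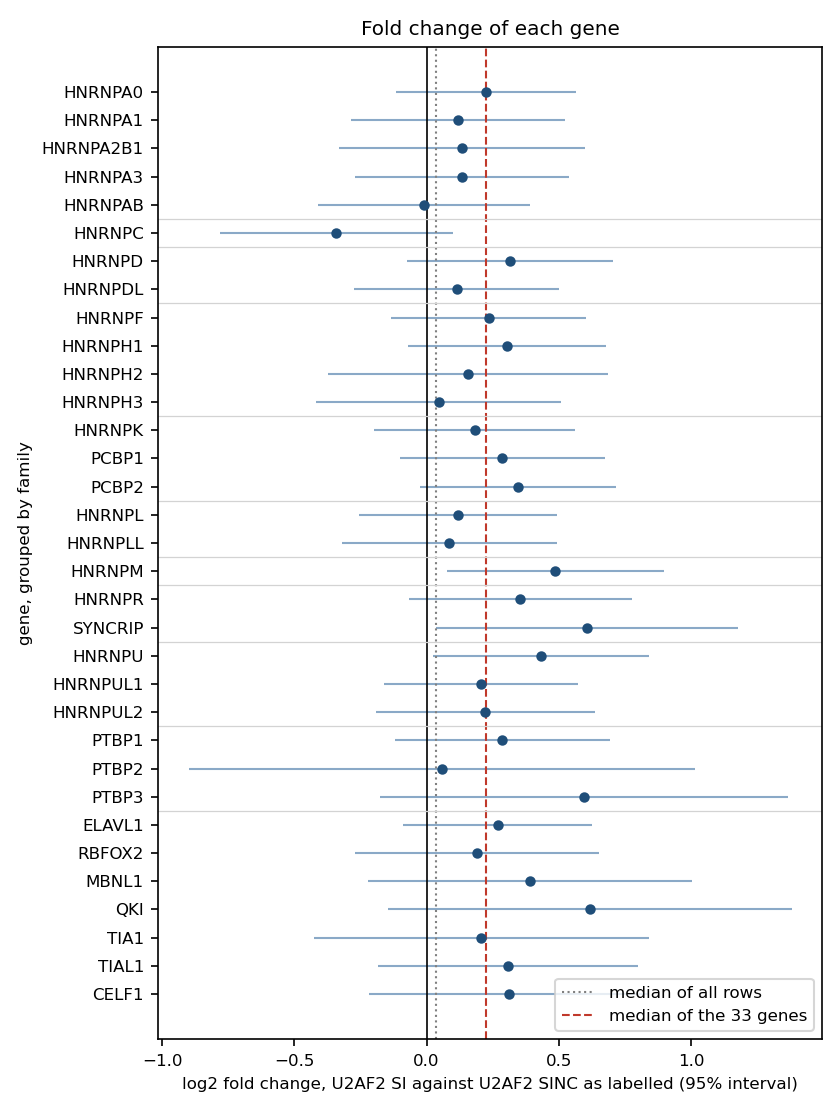
Log2 fold change of each of the 33 genes (points, libraries labelled U2AF2 SI against U2AF2 SINC, edgeR) with its 95% interval (bars), grouped by family. The points lie right of 0 for 31 genes, the intervals of SYNCRIP, HNRNPM and HNRNPU exclude 0, and HNRNPC lies furthest left.

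SYNCRIP and HNRNPR encode close relatives of the hnRNP Q and R type, which bind RNA through RNA recognition motifs and act on mRNA stability and translation. SYNCRIP was at 95.05, 83.7 and 65.8 CPM in replicates 1, 2 and 3 labelled SI and at 38.6, 44.3 and 77.5 CPM in those labelled SINC. Replicates 1 and 2 labelled SINC were low, and replicate 3 labelled SINC lay within the range of the libraries labelled SI, so the groups overlapped. Its log2 fold change was 0.61 ± 0.26 (SE; 95% interval 0.04 to 1.18, edgeR adjusted p = 0.653). Without replicate 3 labelled SINC it was 0.98, and without replicate 1 labelled SINC 0.42. HNRNPR was at 102, 76.6 and 91.0 CPM against 62.6, 62.4 and 85.8 CPM. Here too replicate 3 labelled SINC was the high library of its group (log2 fold change 0.36 ± 0.19 SE, edgeR adjusted p = 0.696).

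HNRNPM, an abundant hnRNP that binds GU-rich RNA, was at 203, 302 and 238 CPM in libraries labelled SI and at 174, 169.6 and 187 CPM in those labelled SINC. All 3 of the former lay above the latter, and replicate 2 labelled SI was the highest. The log2 fold change was 0.49 ± 0.19 (SE; 95% interval 0.08 to 0.90, edgeR adjusted p = 0.653), and it was 0.33 without replicate 2 labelled SI.

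HNRNPU, a nuclear scaffold protein that binds both RNA and chromatin, was at 418, 422 and 404.5 CPM in libraries labelled SI and at 285, 263 and 375 CPM in those labelled SINC. The former were nearly level, and the spread lay in the latter, with replicate 3 close to the other group (log2 fold change 0.43 ± 0.19 SE, 95% interval 0.02 to 0.84, edgeR adjusted p = 0.653). Its relatives HNRNPUL1 and HNRNPUL2 stood at log2 fold changes of 0.21 ± 0.17 SE and of 0.22 ± 0.19 SE. HNRNPUL2 is uncertain, because a readthrough row, HNRNPUL2-BSCL2, held 1458, 61 and 2043 counts in libraries labelled SI and 0, 0 and 1163 in those labelled SINC, and its reads can come from the same exons.

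**Figure D2:**
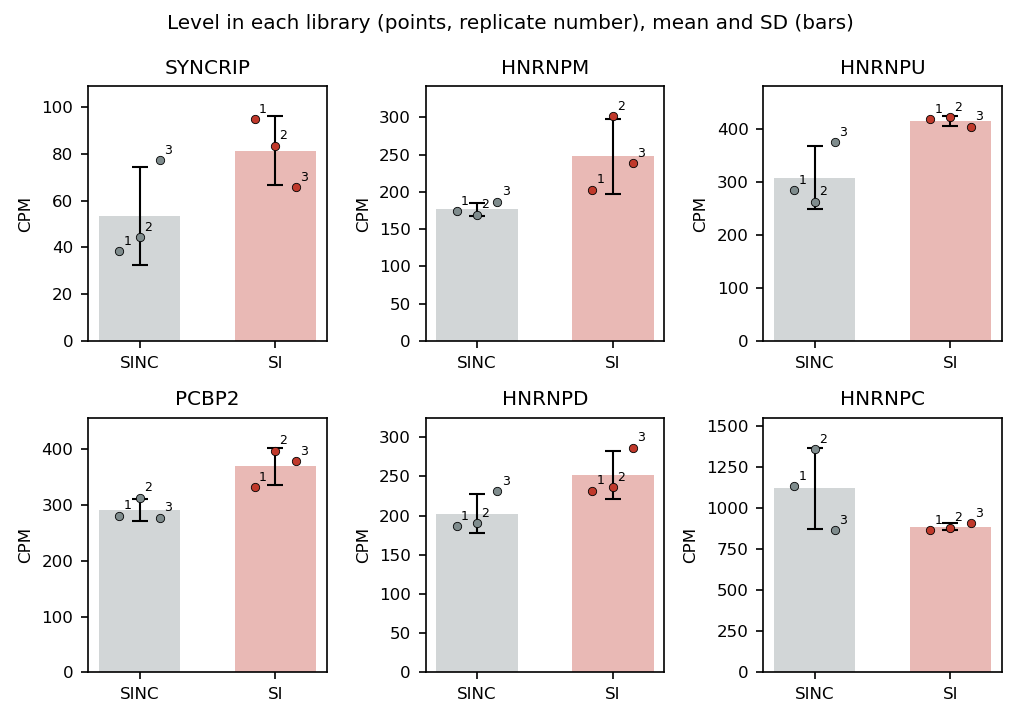
CPM of 6 genes in each library (points, numbered by replicate) with the mean (bar, from 0) and SD (whisker) of 3 libraries labelled SINC and 3 labelled SI. HNRNPM, HNRNPU, PCBP2 and HNRNPD do not overlap between the groups, while in SYNCRIP and HNRNPC replicate 3 labelled SINC sits with the libraries labelled SI.

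HNRNPC and HNRNPAB were the 2 genes below 0, and HNRNPC lay furthest from it. This uridine-tract binding protein was at 866, 881 and 908 CPM in libraries labelled SI and at 1135, 1359.9 and 867.5 CPM in those labelled SINC. The 3 former were nearly equal, and of the latter replicates 1 and 2 lay far above them while replicate 3 lay among them. The log2 fold change was -0.34 ± 0.20 (SE; 95% interval -0.78 to 0.10, edgeR adjusted p = 0.702). It was -0.49 without replicate 3 labelled SINC (edgeR adjusted p = 0.292) and -0.18 without replicate 2 labelled SINC. As a share of the counts of all 33 genes, which does not depend on scaling between libraries, HNRNPC made up 11.6%, 11.8% and 11.0% in libraries labelled SI and 16.6%, 18.9% and 12.4% in those labelled SINC. HNRNPU made up 5.58%, 5.65% and 4.92% against 4.17%, 3.66% and 5.36%, and replicates 1 and 2 labelled SINC had both the largest shares of HNRNPC and the smallest of HNRNPU. Shares of the same total are not independent, since a larger share of HNRNPC by itself lowers those of the other genes. These shares were looked at after the values were seen and were not tested.

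The A/B family as grouped here includes core hnRNP particle proteins that favour exon skipping, and HNRNPAB was counted in it. The 5 genes of the family had a median log2 fold change of 0.13, with 4 of 5 above 0. HNRNPA1, the most abundant of them per kilobase, was at 929.8, 942.5 and 1228 CPM in libraries labelled SI and at 944, 954 and 956 CPM in those labelled SINC. Its log2 fold change of 0.12 ± 0.18 (SE) rested on replicate 3 labelled SI, and was -0.023 without it. HNRNPA0, at 159, 167 and 171 CPM against 139.6, 143 and 142 CPM, did not overlap between the groups (log2 fold change 0.23 ± 0.16 SE, edgeR adjusted p = 0.730). HNRNPAB was level, at 309, 379.5 and 408 CPM against 402, 376 and 326 CPM (log2 fold change -0.0089 ± 0.18 SE), and HNRNPA2B1 and HNRNPA3 both had a log2 fold change of 0.13. HNRNPA1 is uncertain as a single gene, since GENCODE release 29 names 75 pseudogenes of it and the rows of its copies HNRNPA1L2 and HNRNPA1L3 held few counts, at 4.72 and 10.8 CPM in libraries labelled SI. HNRNPA3, with 16 such pseudogenes, HNRNPC, with 9, and HNRNPK, with 5, share that limit.

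Both genes of the D family as grouped here lay above 0. HNRNPD, known as AUF1 for its part in the decay of AU-rich mRNA, was at 232, 237 and 287 CPM against 186, 189.9 and 231 CPM. The lowest library labelled SI stood just above the highest labelled SINC (edgeR log2 fold change 0.31 ± 0.18 SE, adjusted p = 0.698), and HNRNPDL was at 0.12 ± 0.18 (SE).

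The F/H family, whose members bind runs of guanosine near splice sites, had 4 of 4 above 0 (median 0.20). HNRNPF was at 301, 314.5 and 326 CPM against 258, 298 and 244 CPM. Its groups did not overlap, though replicate 2 labelled SINC came close to the lowest library labelled SI (log2 fold change 0.24 ± 0.17 SE, edgeR adjusted p = 0.739). HNRNPH1 had a log2 fold change of 0.30 ± 0.17 (SE), HNRNPH2 of 0.16 ± 0.24 (SE) and HNRNPH3 of 0.05 ± 0.21 (SE).

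HNRNPK, PCBP1 and PCBP2 bind cytidine-rich RNA through KH domains, and all 3 lay above 0. HNRNPK was at 649.7, 542 and 664 CPM against 523, 572 and 541 CPM, with replicate 2 labelled SI inside the range of the other group. PCBP2 was at 333, 398 and 378 CPM against 281, 313 and 277.5 CPM, without overlap (log2 fold change 0.35 ± 0.17 SE, 95% interval -0.03 to 0.72, edgeR adjusted p = 0.686). PCBP1, a gene without introns that is given for its value after the length trend, chosen after its values were seen, was at 269, 349 and 324 CPM against 249, 284 and 239.7 CPM, with replicate 1 labelled SI below replicate 2 labelled SINC (log2 fold change 0.29 ± 0.18 SE). HNRNPA0 was the other gene with a coding transcript of 1 exon, and the log2 fold changes of both lay near the median of the list.

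HNRNPL and HNRNPLL, which bind CA-rich RNA, lay at 0.12 ± 0.17 (SE) and 0.087 ± 0.18 (SE) on the log2 scale. HNRNPL was at 310.2, 325 and 368 CPM against 315, 329 and 279 CPM, so the groups overlapped. Of the polypyrimidine tract binding proteins, PTBP1 was at 380.0, 539 and 496 CPM against 399, 394 and 366 CPM. Replicates 2 and 3 labelled SI were high and replicate 1 was not (log2 fold change 0.29 ± 0.19 SE, edgeR adjusted p = 0.716). Its paralogs PTBP2, the neuronal form that PTBP1 represses by exon skipping, and PTBP3 were scarce, at 5.40 ± 3.36 and 13.0 ± 5.58 CPM (SD, n = 3) in libraries labelled SI. PTBP2 rested on 138 to 477 counts per library, and its 95% interval of -0.90 to 1.02 on the log2 scale spans both directions.

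All 7 of the other regulators lay above 0 (median 0.31), none with an unadjusted p under 0.05. ELAVL1, the ubiquitous HuR protein that stabilizes AU-rich mRNA, was at 153, 149.98 and 157 CPM against 129, 139.5 and 113 CPM. These groups did not overlap (log2 fold change 0.27 ± 0.16 SE, edgeR adjusted p = 0.710). QKI, which binds ACUAA motifs and is singled out after its values were seen, had the highest value of the list at 0.62 ± 0.35 (SE), with a 95% interval of -0.15 to 1.38. It was at 28.5, 16.9 and 10.5 CPM against 13.9, 8.33 and 14.1 CPM, so that replicate 1 labelled SI stood alone and replicate 3 labelled SI lay within the other group. MBNL1 and CELF1, which act against each other on muscle exons, lay at log2 fold changes of 0.39 ± 0.28 SE and of 0.31 ± 0.24 SE. TIAL1 and TIA1, which bind uridine-rich tracts after weak 5′ splice sites, stood at 0.31 ± 0.22 (SE) and 0.21 ± 0.29 (SE), and RBFOX2, a UGCAUG-binding protein, at 0.19 ± 0.21 (SE).

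**Figure D3:**
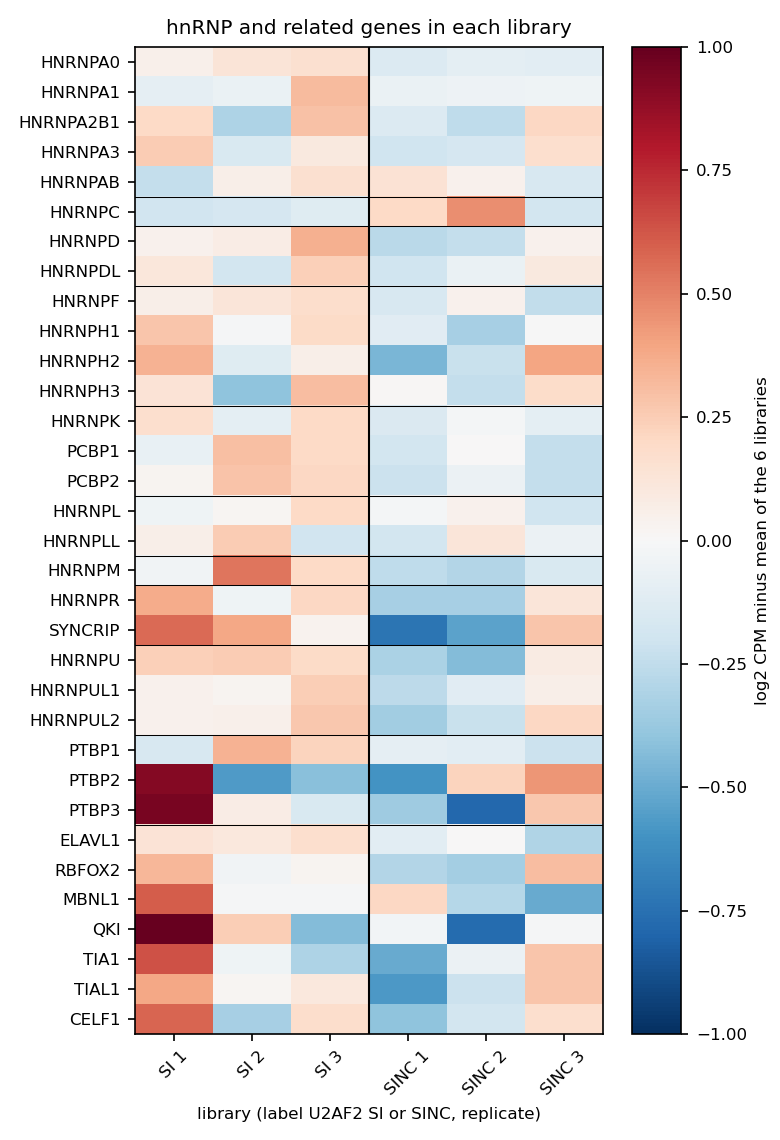
Log2 CPM of each of the 33 genes (rows, by family) in each library (columns) minus the gene's mean over the 6 libraries, on a scale cut at -1 and 1. Replicates 1 and 2 labelled SINC are mostly blue, replicate 3 labelled SINC is mixed, and HNRNPC is red in replicates 1 and 2 labelled SINC.

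Levels differed far more between genes than between groups. Per kilobase of the longest coding transcript, HNRNPA1 (241 ± 28.1 CPM per kilobase, SD over 6 libraries), HNRNPC (223 ± 45.1), HNRNPAB (204 ± 22.6) and HNRNPK (198 ± 20.5) came first, and neighbours in that order lay within each other's spread. PCBP1 (163 ± 24.5) and HNRNPL (130 ± 11.7) followed. HNRNPM stood at 82.6 ± 19.6, HNRNPU at 52.7 ± 10.2 and SYNCRIP at 9.98 ± 3.30 CPM per kilobase. MBNL1, QKI, PTBP3 and PTBP2 were lowest, between 1.77 and 0.441 CPM per kilobase. The order depends on the transcript assumed: per kilobase of the median coding transcript HNRNPA1 and HNRNPC stayed first and HNRNPD followed, at 297 CPM per kilobase.

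Libraries of one group did not agree on these genes. On the log2 scale, the median deviation of the 33 genes from their mean over the 6 libraries was 0.13, 0.02 and 0.17 in replicates 1, 2 and 3 labelled SI and -0.20, -0.16 and 0.04 in those labelled SINC. Replicate 3 labelled SINC thus lay above replicate 2 labelled SI. Replicates 1 and 3 labelled SI held the highest value of 12 and 13 genes, and replicate 1 labelled SINC the lowest of 13. Summed over the 33 genes the level was 7493, 7477 and 8228 CPM against 6821, 7193 and 6996 CPM, which did not overlap. As a share of raw counts the 33 genes held 0.872%, 0.799% and 0.803% against 0.596%, 0.642% and 0.739%. Such shares are not scaled between libraries. With library size alone, all rows too had a median log2 fold change above 0, at 0.22, with 74.7% above 0. Without replicate 3 labelled SINC, 10 of the 33 had an unadjusted p under 0.05, 9 higher and HNRNPC lower, while 14.4% of all rows did. Without replicate 1 or replicate 2 labelled SINC there were 0, against 3.43% and 3.21% of all rows. Without replicate 1, 2 or 3 labelled SI there were 1, 2 and 3, against 6.36%, 6.85% and 6.57% of all rows.

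Transcript length moved with these differences. The longest coding transcript of the listed genes had a median of 4173 nt, against 3371 nt over 11270 coding genes with a row, while their coding sequences were no longer (1248 against 1349 nt) and the untranslated part was 2985 against 1626 nt. Their GC content was 42.1% against 49.2%. By the median coding transcript of each gene the listed genes were hardly longer, at 1836 against 1792 nt. They had more annotated transcripts, with a median of 12 against 8. Over all rows the median log2 fold change went from -0.25 in genes of 192 to 1950 nt to 0.19 in genes of 5685 nt and longer, the shortest and the longest of 5 bins of equal size. Of the 33 listed genes, 12 were in the longest bin. Those 12 had a median of 0.33, and all lay above 0, as did 73.1% of all genes of that bin. The 2 in the shortest bin were HNRNPAB and PCBP1, with a median of 0.14. In the bin of 3986 to 5684 nt the 7 listed genes had a median of 0.12, against 0.17 over all its rows. In every other bin the median of the listed genes lay above that of all its rows. Over the 33 genes Pearson's r between log2 fold change and log2 length was 0.32 and Spearman's rho 0.34, and over all 11327 rows with a length they were 0.40 and 0.45. These describe genes of the same 6 libraries, which are not independent. With the median length of a gene's coding transcripts, r was 0.04 over the 33 genes and 0.30 over all rows.

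**Figure D4:**
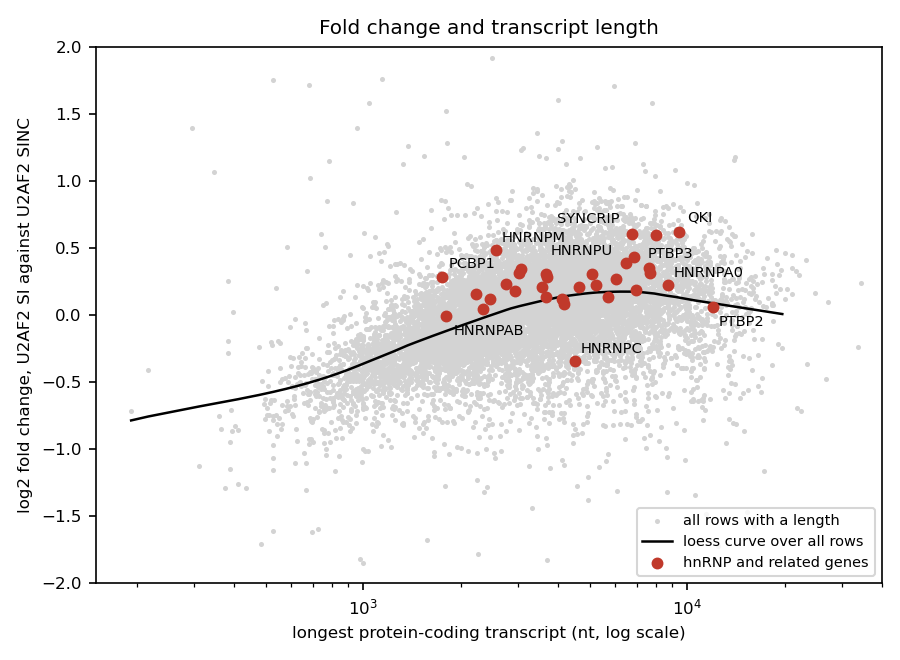
Log2 fold change (vertical axis, SI against SINC as labelled; rows beyond the axis limits are not shown) against the longest protein-coding transcript in nt (log scale), for all rows with a length (grey), their loess curve (line) and the 33 genes (red). The curve rises with length up to several kilobases and then declines, 27 of the 33 genes lie above it, and HNRNPC lies furthest below it.

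Measured from the curve on the longest transcript, the median of the listed genes was 0.12, against 0.01 over all rows with a length. With a trend on the median coding transcript removed instead, it was 0.21, against 0.0036, about as far from the rest as with no length correction. Of the 33 genes, 27 lay above the curve on the longest transcript, against 52.1% of rows. With a trend on length removed within each library, 0 of 33 passed in edgeR (0.00883% of rows did) and 3 had an unadjusted p under 0.05, or 9.09% against 4.29% of rows. Of these 2 were higher and 1 lower, against 1.68% and 2.61% of rows, and 27 of 33 values lay above 0, against 51.3% of rows. HNRNPM kept its value (0.47 ± 0.18 SE), PCBP1 stood at 0.42 ± 0.16 (SE) and HNRNPC at -0.52 ± 0.21 (SE), each with an edgeR adjusted p of 0.999. HNRNPU stood at 0.26 ± 0.17 (SE) and SYNCRIP at 0.43 ± 0.22 (SE), and 2 genes in place of 7 did not overlap between the groups, or 6.06% against 9.28% of rows. These 2 were HNRNPM, which was among the 7, and PCBP1, which was not. HNRNPA0, HNRNPD, HNRNPF, PCBP2, HNRNPU and ELAVL1 overlapped after the length trend. HNRNPA0 then stood at 0.06 ± 0.20 (SE) and ELAVL1 at 0.07 ± 0.20 (SE). The values of HNRNPC and PCBP1 depended on whether the trend was fitted on longest or on median coding transcripts. The longest of HNRNPC has 4501 nt and its median coding transcript 1312 nt, and with the latter the value was -0.28 (edgeR adjusted p = 0.883). PCBP1, whose longest and median coding transcripts both have 1750 nt, stood at 0.27 with that trend, and neither gene then had an unadjusted p under 0.05. HNRNPC was also at -0.29 after the trend on the longest transcript without replicate 2 labelled SINC.

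**Figure D5:**
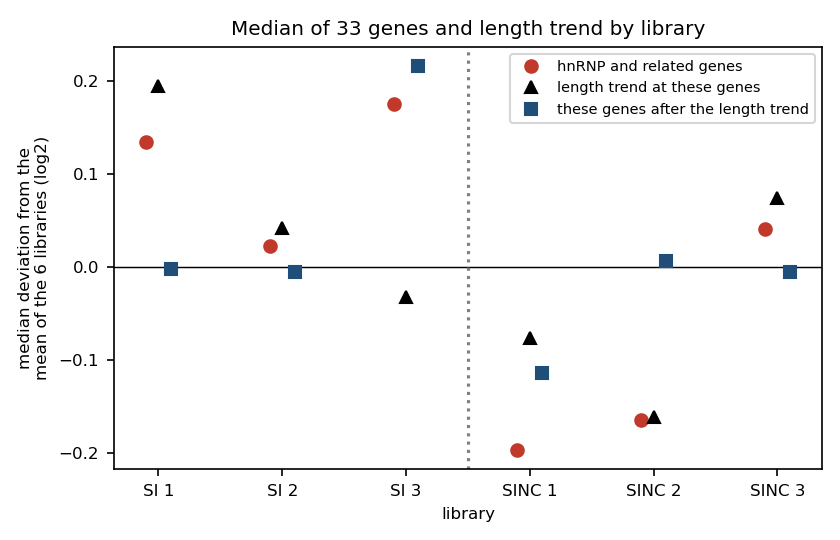
Median deviation of the 33 genes from their mean over the 6 libraries (circles, log2 scale), the length trend of each library at these genes (triangles) and the median after its removal (squares). Circle and triangle lie on the same side of 0 in 5 libraries, and after removal replicate 3 labelled SI, at 0.22, and replicate 1 labelled SINC, at -0.11, remain apart from 0.

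After the length trend the medians were near 0 in 4 libraries, between -0.01 and 0.01, and 0.22 in replicate 3 labelled SI and -0.11 in replicate 1 labelled SINC. Without replicate 3 labelled SI the length-adjusted median of the list was 0.04, with 20 of 33 above 0, and without replicate 1 labelled SINC it was 0.07, with 22 of 33. The other 4 omissions gave 0.14 to 0.19. The length trend itself was steepest in replicate 1 labelled SI and replicate 2 labelled SINC, where it stood at 0.20 and -0.16 at these genes.

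Annotated transcripts open to nonsense-mediated decay were listed for 18 of the 33 genes, or 54.5%, against 44.0% of coding genes with a row. The listed genes also had more annotated transcripts of any kind (median 12 against 8), and these shares take no account of that. The median log2 fold change was 0.25 in these 18 (17 above 0) and 0.23 in the other 15 (14 above 0). No test was made of that difference.

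A second list held 50 further RNA-binding proteins of splicing, stability and translation, of which 41 had a row. Of these 0 passed in edgeR, 29 lay above 0 and the median log2 fold change was 0.23, or 0.16 from the length curve. Over all rows 54.3% lay above 0. Of the 41, 6 had an unadjusted p under 0.05, against 7.37% of all rows, and all were higher in libraries labelled SI, as were 3.15% of all rows: KHSRP, IGF2BP1, IGF2BP2, IGF2BP3, YBX3 and NOVA2. NOVA2, a neuronal splicing factor, was at 1.65, 1.27 and 1.90 CPM against 0.327, 0.445 and 0.830 CPM (log2 fold change 1.58 ± 0.49 SE, edgeR adjusted p = 0.653). It rested on 85, 63 and 81 counts in libraries labelled SI and 14, 18 and 38 in those labelled SINC. The lowest mean of a row was 31 counts, so NOVA2 may have a row only through the libraries labelled SI. Its difference is uncertain for that reason. IGF2BP3 and IGF2BP1, oncofetal proteins that stabilize mRNA, lay at log2 fold changes of 0.89 ± 0.33 SE and of 0.43 ± 0.17 SE, both without overlap between the groups. Of 9 genes for nuclear import and arginine methylation of hnRNPs and other splicing factors, 0 had an unadjusted p under 0.05 and 6 lay above 0. TNPO3, an import receptor of splicing factors, was at 0.42 ± 0.20 (SE), PRMT1, the main arginine methyltransferase, at -0.25 ± 0.21 (SE) and CARM1 at 0.16 ± 0.17 (SE).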

How the data were processed

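Read counts per gene were used as deposited by the authors, as whole numbers that differ in total between libraries. Per the labels' protocols, libraries were poly(A)-enriched and strand-specific. The submitters' processing notes list CASAVA and StringTie. Not given in the sources used here: aligner, build, annotation and counting strand. Reads of antisense and overlapping genes therefore cannot be told apart. The lowest mean of a row was 31 counts, and genes below it were not analysed here. Columns were tied to libraries by the sample descriptions.

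Differences were tested over all 11957 rows and 6 libraries with edgeR 4.0.16 (TMM, filterByExpr, quasi-likelihood test, Benjamini-Hochberg, threshold 0.05), as SI minus SINC. Alternatives used DESeq2 1.42.0, limma 3.58.1 (voom), other scalings and filters, a replicate block, merged or omitted rows, and omission of each library. Length means the longest protein-coding transcript of GENCODE release 29 (11327 rows), and trends were removed by loess (span 0.3). The length from median coding transcripts was chosen after seeing the data. CPM are TMM-scaled. The test was also run on counts simulated with the dispersions of these data and without a length trend, and its outcome is not given here. Named genes were members with an unadjusted p under 0.05, no overlap or a value below 0, the most abundant of each family, and the 3 smallest p-values of each further list; others are summarised. Members and lists were chosen with earlier results of these data known.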

Additional observations from a re-analysis of the deposited data

How the results depend on the processing

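In DESeq2 some of the 33 genes, SYNCRIP among them, had no adjusted p. Under all alternatives run, 0 of the 33 genes passed an adjusted p under 0.05, and 27 to 32 of the 33 lay above 0, or 20 to 29 where an alternative was combined with the length trend. Their median of 0.23 was 0.15 to 0.29 in the omissions of 1 library, 0.11 with a length and GC trend removed, 0.12 with length and the replicate block, 0.21 with the median coding transcript, and 0.41 with library size alone, where all rows had a median of 0.22 in place of 0.04 and 74.7% lay above 0. From the length curve the median was 0.08 to 0.19 in the omissions. The 3 genes with an unadjusted p under 0.05 became 0 to 10 in the omissions (3.21% to 14.4% of all rows), 13 (all higher) with library size alone (9.61%), 1 with the replicate block (4.58%), 0 with the block and the length trend (3.05%), and 1 with the median coding transcript (5.56%). After the length trend, 3 became 0 to 5 in the omissions (2.84% to 7.34% of rows), 0 with the block and 1 with the median coding transcript. The 7 without overlap became 8 to 18 in the omissions, 12 with library size alone and 2 after the length trend, where 17.8% to 35.7%, 16.8% and 9.28% of all rows did not overlap. The 6 of 41 further RNA-binding proteins became 1 to 13 in the omissions (3.21% to 14.4% of all rows), 16 with library size alone (9.61%) and 2 with the block (4.58%). They became 3 with block and length trend (3.05% of rows), 4 with the length trend (4.29%) or RLE scaling (7.15%), and 7 with length and GC (7.56%). The 0 import and methylation genes became 0 to 1 in the omissions and 2 with library size alone. Over all rows the 1 called row became 0 to 2 in the omissions, 61 in DESeq2, 2 with the block, with or without the length trend, and 0 with upper-quartile scaling, library size alone, a mean of at least 5 CPM, merged Ensembl rows or the length and GC trend. HNRNPA1 turned to -0.016 with the length trend, -0.030 with length and GC and -0.038 with length and block, and ran from -0.023 to 0.19 in the omissions. HNRNPAB turned to 0.11, 0.10 and 0.11 under these and 0.17 with library size alone, and ran from -0.096 to 0.088 in the omissions. Causes were not tested. Same-numbered libraries had correlations of -0.09, 0.25 and -0.31 between their deviations from the group means. The highest of all pairs was 0.46, for replicate 1 labelled SI with replicate 3 labelled SINC. These values do not show that the numbers pair libraries. They cannot exclude it either, since deviations from a group mean sum to 0 within the group. With 3 libraries a group, edgeR's biological coefficient of variation was 27.0%.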
